A study of Mus musculus with 12 samples.

Results

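Neurofilament and neurite growth genes were followed in 12 RNA-seq libraries of sorted cochlear hair cells: Nefl, Nefm, Nefh, Ina, Prph, Tubb3, Map1b, Stmn2, Gap43 and Basp1, 10 of the 55416 genes counted. They were chosen by name with their IHC and OHC levels in these same libraries already known, and those levels are therefore given as a description. A count of the members past the threshold of the comparison is given once, beside the share of all genes, and supports nothing. The question was whether Nefl and Nefm, which are high in both kinds of hair cell, came with the other transcripts by which neurons are usually recognised, such as Tubb3 and Prph. All 10 names matched a gene ID in the files. Of the 10, 5 passed the filter on low counts that selected 13269 genes for the comparison of cell types (Nefl, Nefm, Ina, Map1b and Basp1), and 5 did not (Nefh, Prph, Tubb3, Stmn2 and Gap43).

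The libraries came from the organ of Corti of newborn mice (postnatal day 0), labelled WT. There were 6 pools of inner hair cells (IHCs), sorted on the GFP of an Atoh1-GFP allele, and 6 pools of outer hair cells (OHCs), sorted on GFP together with the tdTomato that a Cre from the Insm1-GFP-Cre allele switches on at R26. Each pool held cells of multiple pups of both sexes. The reporters mark whatever cells have turned on Atoh1 or Insm1, and Insm1 is also used by developing neurons. RNA was depleted of ribosomal RNA and amplified from random primers, with no strand mark. Levels below are CPM, counts scaled to a common library size by TMM. With 6 pools of each type, a level is given as its lowest, median and highest value.

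The libraries held between 29564827 and 44017309 counts on genes, and 3 counts were worth between 0.0647 and 0.196 CPM. IHC replicate 1 stood apart with 56.9% of its counts on ribosomal RNA genes and the smallest scaled size, and results are given without it where that mattered. The cell type labels fit their markers. The IHC genes Slc17a8, Otof, Fgf8 and Tbx2 were higher in every IHC pool than in any OHC pool, and the OHC genes Insm1, Neurod6 and Bcl11b were higher in every OHC pool, while the fourth OHC marker, Ikzf2, did not separate the types (log2 fold change -0.40, SE 0.91). In bulk pools, fewer cells with a transcript and less transcript in each cell cannot be told apart.

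Neurofilaments are the intermediate filaments of neurons. The light (Nefl), medium (Nefm) and heavy (Nefh) chains assemble together, often with internexin alpha (Ina) or peripherin (Prph), and fill and widen axons. Tubb3 is the beta-tubulin used as a general neuronal label, Map1b coats growing microtubules, Stmn2 regulates microtubule ends in growing axons, and Gap43 and Basp1 are membrane-bound proteins of the growth cone. Hair cells have no axon. In the inner ear these genes are best known from spiral ganglion neurons, whose peripheral processes reach the hair cells at birth.

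Stretches of sequence show where transcription of members at opposite ends of the range of levels begins: Map1b, the highest in CPM in OHCs, Ina, which was counted in every pool, and Tubb3, which was at most 22 counts in any. They are the bases just before the start of the canonical transcript, taken from the RefSeq promoter table (5 of the 10 members were in it) and matched to GRCm39, where each occurred once on its chromosome. Capitals mark matches to motifs searched on both strands, so that a match on the other strand shows as its complement. The E-box was searched in the form CAGCTG. The GC box, bound by Sp factors, was searched as CCGCCC. The third motif was the TATA box of core promoters, searched as TATAAA.
Map1b, chr13:99653134-99653360, - strand: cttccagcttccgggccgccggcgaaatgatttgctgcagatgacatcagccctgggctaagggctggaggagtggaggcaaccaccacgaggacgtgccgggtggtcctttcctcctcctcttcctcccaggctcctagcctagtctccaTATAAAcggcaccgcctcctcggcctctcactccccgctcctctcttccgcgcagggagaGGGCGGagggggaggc
Ina, chr19:47002870-47003119, + strand: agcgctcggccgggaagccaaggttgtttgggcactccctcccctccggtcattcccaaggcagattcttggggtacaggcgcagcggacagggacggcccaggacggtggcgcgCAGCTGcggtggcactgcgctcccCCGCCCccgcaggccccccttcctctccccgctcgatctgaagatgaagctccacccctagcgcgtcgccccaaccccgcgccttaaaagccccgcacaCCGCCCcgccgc
Tubb3, chr8:124138042-124138162, + strand: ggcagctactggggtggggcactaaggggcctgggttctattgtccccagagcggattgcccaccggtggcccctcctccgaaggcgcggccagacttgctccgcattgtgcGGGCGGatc
The Map1b stretch of 227 bases held TATAAA, as did 11.4% of all 32851 promoters in the table over the same window, and 1 GC box, as did 29.4%. The Ina stretch of 250 bases held 1 E-box of this form, found in 13.0% of promoters, and 2 GC boxes, found in 32.7%. The Tubb3 stretch of 121 bases held 1 GC box, found in 12.9%. These matches describe the letters only.

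Nefl (ENSMUSG00000022055.8, chr14:68321268-68326544, + strand, GRCm39), the light chain without which the filament does not assemble, stood at 296 CPM in the lowest IHC pool, 474 in the median and 520 in the highest. In the OHC pools it stood at 69.5, 108 and 149 CPM. Every IHC pool was above every OHC pool, and even the lowest OHC pool rested on 2364 counts. The mean was 431 ± 102 CPM in IHCs and 106 ± 31.5 CPM in OHCs (SD, n = 6 each), a fitted log2 fold change of -2.03 (SE 0.24, OHC minus IHC), or 4.08-fold more in IHCs. Among the 13269 tested genes ordered by mean CPM, Nefl was number 200 in IHCs and number 1413 in OHCs.

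Nefm (ENSMUSG00000022054.12, chr14:68320039-68362305, - strand), the medium chain, followed the same division. It stood at 512, 690 and 1185 CPM in the lowest, median and highest IHC pool. The OHC pools held 127, 205 and 304 CPM. The groups again did not overlap, with a fitted log2 fold change of -1.88 (SE 0.25), or 3.68-fold more in IHCs. Nefm was number 67 of the tested genes in IHCs and number 534 in OHCs. Leaving out each library in turn kept the log2 fold change of Nefl between -2.15 and -1.93 and that of Nefm between -2.03 and -1.72, the latter without IHC replicate 1.

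The third chain of the mature filament was nearly missing. Nefh (chr11:4888740-4898130, - strand), the heavy chain, gave 1 count in the lowest and the median IHC pool and 17 in the highest. In OHCs it gave 1, 27.5 and 310 counts. The OHC pools were uneven, with 310, 135 and 49 counts in replicates 1, 2 and 6 and at most 6 in the other 3. In CPM this is 0.0244 to 0.428 in IHCs and 0.0334 to 6.68 in OHCs. The ranges overlapped and Nefh did not pass the filter. Its exons share 861 bases with Ap1b1 on the other strand, an adaptor protein gene with up to 5515 counts in a library, and reads in that stretch cannot be told apart by strand.

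Ina (chr19:47003069-47013770, + strand), the internexin that pairs with the neurofilament chains early in development, had its higher median in OHCs but did not pass the test. It stood at 1.05, 8.57 and 25.5 CPM in the lowest, median and highest IHC pool. The OHC pools held 15.5, 25.5 and 44.0 CPM. The ranges overlapped, because IHC replicates 3 and 5 reached the OHC range, and the fitted log2 fold change was 1.28 (SE 0.61). Ina shares 526 exonic bases with Nt5c2, which runs on the opposite strand.

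Prph (chr15:98952872-98956862, + strand), the peripherin of type II spiral ganglion neurons, was at the floor everywhere. It gave 2 counts in IHC replicate 4 and none in the other IHC pools. The OHC pools gave between 0 and 2 counts. No library exceeded 3 counts, and no fold is given.

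**Figure D1:**
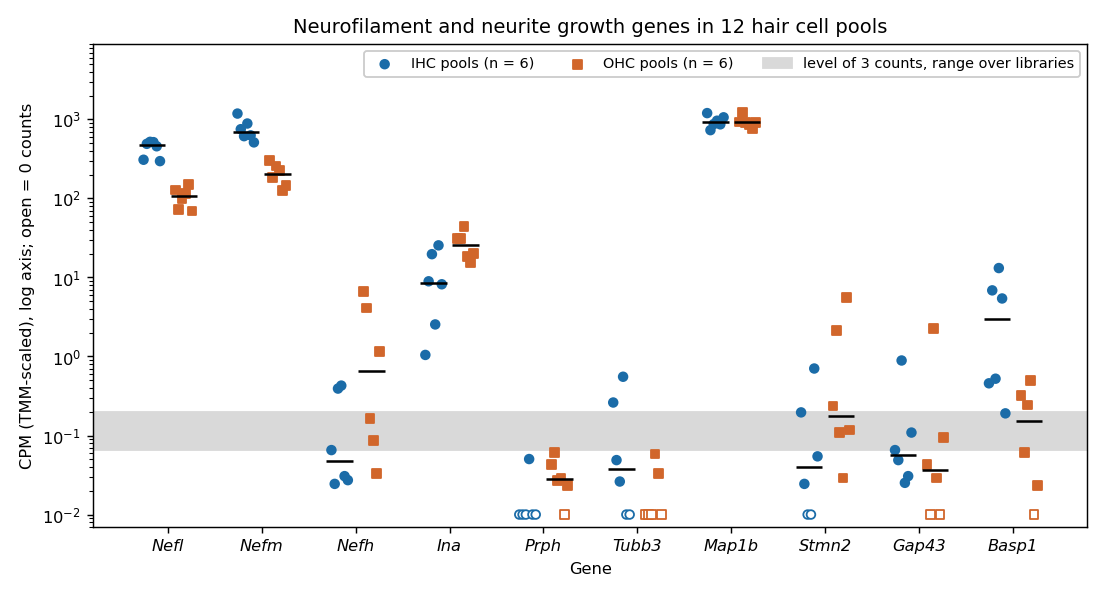
CPM of each gene (log axis) in the 6 IHC pools (circles) and 6 OHC pools (squares), with bars at non-zero medians, open symbols for 0 counts and a grey band for the value of 3 counts. Nefl, Nefm and Map1b lie above 69 CPM in every pool, Nefl and Nefm with all IHC pools above all OHC pools, while Prph and nearly all Tubb3 values lie in or under the band.

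Per length, Nefl and Nefm were the leading members in IHCs. Divided by the length of all annotated exons, Nefm stood at 86.2, 116 and 199 CPM per kilobase and Nefl at 86.6, 138 and 152 CPM per kilobase, ranges that overlapped almost fully. Map1b came next at 44.3 to 72.7 CPM per kilobase, below the range of both. With the length of the canonical transcripts the ranges of Map1b (61.5 to 101) and Nefl (86.6 to 152) overlapped in IHCs. Ina (0.316 to 7.69) and Basp1 (0.0880 to 6.07) followed and overlapped each other, and the medians of Gap43, Tubb3, Nefh, Stmn2 and Prph were at most 0.0301 CPM per kilobase. In OHCs the order began with Map1b at 45.7 to 74.1 CPM per kilobase, overlapping Nefm at 21.4 to 51.1, which in turn overlapped Nefl at 20.3 to 43.5. Ina stood below these at 4.69 to 13.3 CPM per kilobase in OHCs and above every other member.

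**Figure D2:**
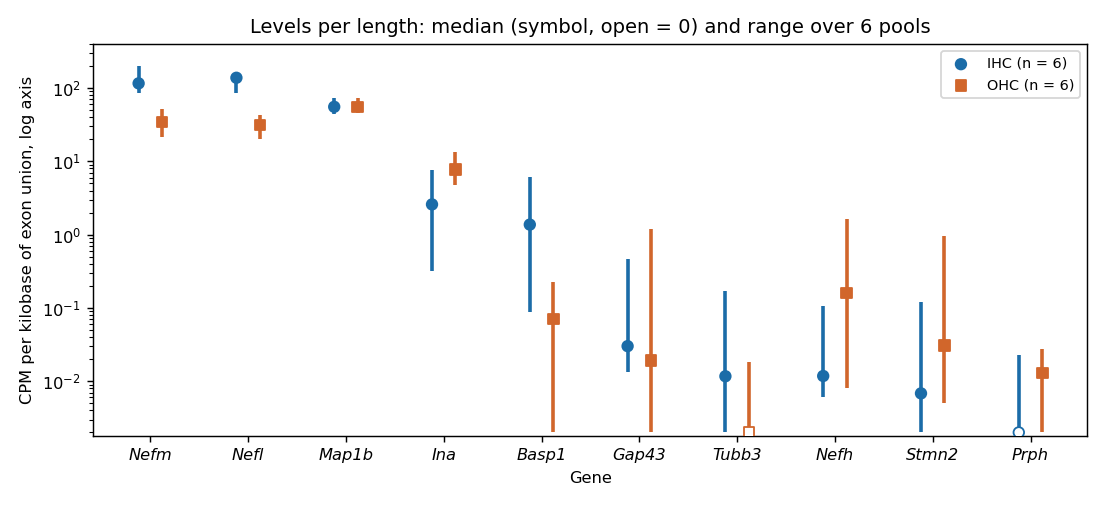
Median (symbol) and range (line) of CPM per kilobase of exon union over 6 pools of each type, on a log axis with genes ordered by their IHC mean; lines that reach the axis end at 0. Nefm and Nefl lead in IHCs with medians of 116 and 138, Map1b leads in OHCs, and Gap43, Tubb3, Nefh, Stmn2 and Prph have medians of at most 0.161 in either type.

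The makeup of the filament transcripts was set side by side in the types. Of the summed level per length of Nefl, Nefm, Nefh, Ina and Prph, Ina made up between 0.109% and 3.12% in IHCs and between 6.74% and 15.5% in OHCs, without overlap. Nefh made up at most 0.0369% in any IHC pool and 1.65% in any OHC pool. Nefl made up 31.1% to 58.2% in IHCs and 33.6% to 62.5% in OHCs. Most of the sum was Nefl and Nefm, both higher in IHCs, and the share of Ina depends on them. The CPM of Ina itself overlapped, reaching 25.5 in IHCs and starting at 15.5 in OHCs. These shares come from the levels by which the genes were chosen and carry no test.

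The counts of Nefl and Nefm carry a limit of annotation. The genes lie side by side on opposite strands, and 1152 exonic bases, 33.6% of Nefl and 19.4% of Nefm, are shared through a longer Nefm transcript. In an unstranded count, reads in that stretch cannot be told apart by strand. The ratio of Nefl to Nefm counts was 0.260, 0.617 and 0.848 in the lowest, median and highest IHC pool and 0.388, 0.448 and 1.17 in the OHC pools. The ranges overlapped, with IHC replicate 1 lowest and OHC replicate 5 highest. Per length of exon union the mean ratio was 1.06 in IHCs and 0.973 in OHCs, but with the length of the canonical transcripts it was 0.594 and 0.547, so these data do not fix which of the pair was more abundant.

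Tubb3 (chr8:124138163-124150092, + strand), the neuronal beta-tubulin, did not accompany Nefl and Nefm. It gave 0 counts in the lowest IHC pool, 1.5 in the median and 22 in the highest. The OHC pools gave at most 2 counts. Only IHC replicates 4 and 1, at 22 and 4 counts, exceeded 3 counts, and the highest level was 0.554 CPM. IHC replicate 4 held 20464 Nefl counts beside its 22 of Tubb3. Per length the IHC median of Tubb3 was 0.0117 CPM per kilobase, against 138 for Nefl.

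Map1b (chr13:99557954-99653137, - strand) was abundant in both types. It stood at 731, 917 and 1201 CPM in the lowest, median and highest IHC pool. The OHC pools held 756, 918 and 1223 CPM. The ranges lay on top of each other, with a fitted log2 fold change of -0.02 (SE 0.17) that left-out libraries moved between -0.13 and 0.05. Map1b was number 45 of the tested genes by mean CPM in IHCs and number 37 in OHCs.

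Stmn2 (chr3:8574151-8626667, + strand), the stathmin of growing axons, was counted in scattered pools. It gave 0, 1.5 and 23 counts in the lowest, median and highest IHC pool and 1, 8 and 168 in the OHC pools. The higher OHC values came from replicates 5 and 2, at 168 and 70 counts, or 5.60 and 2.13 CPM. The ranges overlapped.

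Gap43 (chr16:42068805-42161086, - strand) was likewise held by single pools. It gave 1, 1.5 and 34 counts in the IHC pools and 0, 1.5 and 84 in the OHC pools. Replicate 3 of each type was the high pool, with 0.890 CPM for the IHCs and 2.28 CPM for the OHCs. The other 10 libraries held at most 4 counts.

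Basp1 (chr15:25363350-25414981, - strand), the growth cone partner of Gap43, was low and uneven. It stood at 0.191, 2.97 and 13.1 CPM in the lowest, median and highest IHC pool. The OHC pools held 0, 0.153 and 0.494 CPM. IHC replicates 2, 4 and 5 held at least 5.42 CPM, while IHC replicates 1, 3 and 6 held 0.458, 0.523 and 0.191 CPM, the first and the last of them inside the OHC range. The fitted log2 fold change was -4.51 (SE 1.29), or 22.8-fold.

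Past an adjusted p of 0.05 in edgeR's quasi-likelihood test, 3 of the 5 tested members were higher in IHCs (Nefl, Nefm and Basp1) and none in OHCs. Over all tested genes 506 (3.81%) were higher in IHCs and 324 (2.44%) in OHCs. Since the members were picked with these values known, nothing is read from that count. Basp1 did not pass without IHC replicate 2, 4 or 5 or without any single OHC pool, and its log2 fold change lay between -5.02 and -3.79 over the fits that left out a library. Of the 13269 tested genes 2.37% had every IHC pool above every OHC pool, as Nefl and Nefm did, and 2.22% the reverse, as no tested member did.

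Over the 12 libraries Nefl and Nefm moved together (Pearson r = 0.87 on log2(CPM + 1)), but 78 other tested genes had a higher r with Nefl. The 12 points share their libraries and fall into 2 cell types, and the values are a description. The nearest were Kcp (r = 0.98), Atp11a (0.97), Hivep2 (0.96), 1110032F04Rik (0.95) and Ldlrad3 (0.95), all at higher median CPM in IHCs. Kcp, a secreted regulator of BMP signalling, stood at 224, 327 and 588 CPM in the lowest, median and highest IHC pool and at 12.2, 28.4 and 46 CPM in OHCs. For Prph no such list is given, because it never exceeded 2 counts.

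Within a cell type, a relation between Nefl and Nefm was not shown. Among the 6 IHC pools their correlation was r = -0.08 (Spearman's rho 0.09), with a two-sided exact permutation p of 0.88 for r and 0.92 for rho. Among the 6 OHC pools it was r = 0.15 (rho 0.09), with exact permutation p of 0.74 and 0.92. Adjusted over the 18 pairs of Nefl with another member, p was 0.92 for both r and both rho. Without the 2 libraries farthest from the Nefl median, r was 0.36 in IHCs (without replicates 1 and 6) and -0.66 in OHCs (without replicates 2 and 6). None of the 8 pairs with a member that passed the filter had an unadjusted p under 0.05, where the smallest p that 720 pairings can give is 0.00139. Among these 8, the pair with Basp1 in OHCs also rests on few counts, at most 17 in any pool, and little can be read from it. The other 10 pairs rest on genes at few counts, and for some of these ties left little to test: Prph in IHCs could not go below p = 0.167 in the exact permutation test, nor Tubb3 in OHCs below 0.0333. The lowest unadjusted p belonged to Map1b, at r = -0.78 in IHCs (rho -0.49, exact permutation p = 0.074 and 0.36, adjusted p = 0.70 and 0.85) and r = -0.73 in OHCs (rho -0.43, exact permutation p = 0.078 and 0.42, adjusted p = 0.70 and 0.85). Without the 2 farthest libraries r of Map1b turned to 0.30 in IHCs and stayed at -0.77 in OHCs, so the IHC value rested on those libraries.

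Transcripts of spiral ganglion neurons were looked at beside Nefl. Of 11 markers, Slc17a6, Slc17a7, Neurog1 and Th were at most 3 counts in every IHC pool, and Neurog1, Th and Grm8 in every OHC pool. The summed level of the 11 was 48.4 to 130 CPM in IHCs and 30.1 to 87.5 CPM in OHCs, most of it from Isl1, a homeobox gene also known from the developing sensory epithelium. Without Isl1 the sum was 13.2, 20.2 and 27.0 CPM in the lowest, median and highest IHC pool and 1.54, 5.92 and 24.4 CPM in OHCs. Of the 4 markers tested, 1 was past the threshold: Ntrk3, a neurotrophin receptor, was higher in IHCs (log2 fold change -5.05, SE 1.11, edgeR adjusted p = 0.00865), at 0.269 to 16.4 CPM against 0.0431 to 0.461. Its log2 fold change was -4.38 without IHC replicate 3 and -5.68 without OHC replicate 3. The median of the marker sum was higher in IHCs, as that of Nefl was, and the part of ganglion neurons in the Nefl level was not tested.

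The members that did not pass the filter were summed beside Nefl, without Nefh. Nefh by itself stood at 6.68, 4.12 and 1.15 CPM in OHC replicates 1, 2 and 6. The summed level of Tubb3, Prph, Gap43 and Stmn2 was 0.122, 0.576 and 0.916 CPM in the lowest, median and highest IHC pool and 0.145, 1.26 and 5.64 CPM in OHCs, and the ranges overlapped. In this sum OHC replicates 1, 4 and 6 lay inside the IHC range. The values above it came from Stmn2 in OHC replicates 2 and 5 and Gap43 in OHC replicate 3. In OHC replicates 1 and 6 Nefh alone was above the top of that range. OHC replicate 5 held the highest sum, and with it 196 counts of Slc17a7, a vesicular glutamate transporter of ganglion neurons. OHC replicate 3, with 84 Gap43 counts, held 172 counts of Slc17a6, a related transporter. OHC replicate 5 also held the highest Nefl and the lowest Nefm of the OHC pools, at 149 and 127 CPM. OHC replicate 3 held 99.9 CPM of Nefl. The part of neurons in the Nefl level of these pools was not tested.

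**Figure D3:**
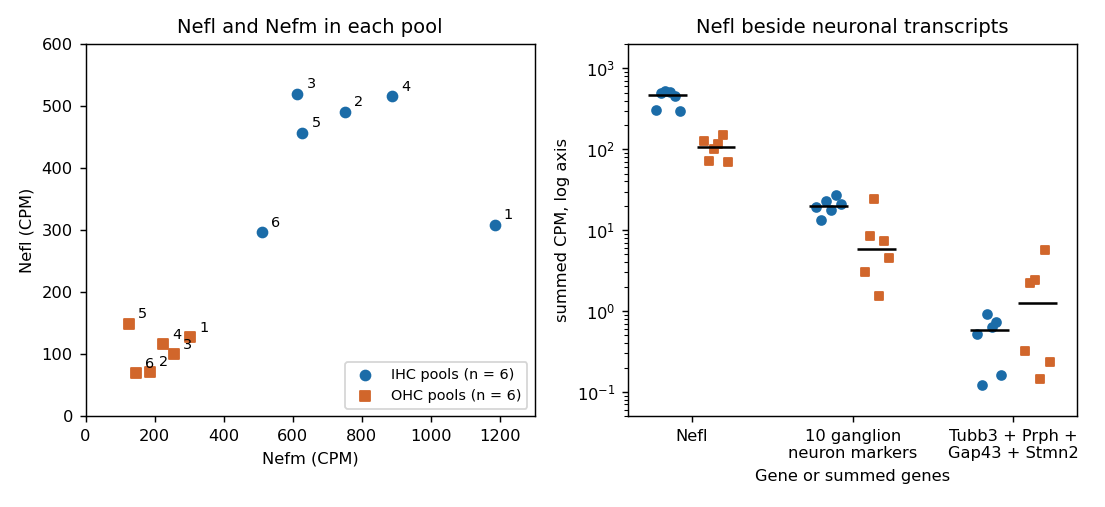
Left, Nefl against Nefm in CPM, each point a pool with its replicate number; right, per pool on a log axis, Nefl, the sum of 10 ganglion neuron markers (the 11 without Isl1) and the sum of Tubb3, Prph, Gap43 and Stmn2, with median bars. Nefl is at least 69.5 CPM in every pool, while the sum of the 4 neuronal members is at most 5.64 CPM, with ranges that overlap between the types. Nefh is not in that sum.

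Markers of other cells were also counted. The 5 glial markers summed to 30.9 to 139 CPM in IHCs and 14.7 to 62.1 CPM in OHCs, none was at the floor in every pool of a type, and none was past the threshold. The 5 supporting cell markers summed to 114 to 294 CPM in IHCs and 126 to 284 CPM in OHCs, in the OHC pools of the same order as Nefl. Sox2 was higher in IHCs (log2 fold change -1.42, SE 0.34, edgeR adjusted p = 0.0142), and the other 4 did not pass. Of those, Fgfr3 (2.12, SE 0.69) and Hes5 (1.32, SE 0.71) were fitted higher in OHCs. Fgfr3 stood at 67.8 to 77.8 CPM in OHCs. IHC replicate 6 held 73.3 CPM of it, and the other IHC pools at most 11.8. Of the 12 fits that left out a library, Fgfr3 passed in 1, and its log2 fold change reached 3.72 (lowest edgeR adjusted p = 0.000108). Jag1 (-0.47, SE 0.43) and Lfng (-0.24, SE 0.52) were fitted higher in IHCs. The 5 endothelial markers were all higher in OHCs, at a sum of 0.0654 to 3.15 CPM in IHCs and 9.45 to 169 CPM in OHCs, and Cldn5 was at 0 in every IHC pool. Their edgeR adjusted p lay between 0.00066 and 0.0386, and of the 12 fits that left out a library Flt1 passed in 4 and Cdh5 in 9 (adjusted p up to 0.119 and 0.0788). Their log2 fold changes moved most without IHC replicate 5 for Cdh5 (from 5.06 to 8.81) and without IHC replicate 6 for Flt1 (from 4.83 to 7.72). The 5 mesenchyme markers summed to 10.3 to 22 CPM in IHCs and 0.776 to 27.2 CPM in OHCs. The part of these cells in the levels above was not tested.

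The wider cytoskeletal and neuronal setting was read from 54 companion genes in 5 lists. Of the 46 tested, 13 were past the threshold, 8 higher in IHCs and 5 in OHCs, that is 28.3% against 6.26% of all tested genes in either direction. These lists too were chosen with earlier results of these data known, so nothing is read from that share. By list, the median log2 fold change was -0.93 for tubulins, -0.72 for other intermediate filaments, -0.19 for microtubule regulators, -0.18 for growth cone and adhesion genes and 0.53 for pan-neuronal genes, against -0.04 for all tested genes.

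Tubulins, the subunits of microtubules, differed in both directions. Of 8 tested, 4 were higher in IHCs and 1 in OHCs. Over all tested genes 3.81% were higher in IHCs and 2.44% in OHCs. Nothing is read from this count or from those of the lists below. Tuba1a, the most abundant alpha-tubulin here, stood at 616, 711 and 861 CPM in the lowest, median and highest IHC pool and at 276, 342 and 425 CPM in OHCs, without overlap (log2 fold change -1.09, SE 0.17, edgeR adjusted p = 0.000526). Tubb4b, a widely expressed beta-tubulin, stood at 312, 530 and 1026 CPM against 137, 155 and 263, also without overlap (-1.75, SE 0.27, edgeR adjusted p = 0.000376). Tubb4a was likewise higher in IHCs, at 17.9 to 40.0 against 1.92 to 19.2 CPM (-2.11, SE 0.54, edgeR adjusted p = 0.0231, and 0.052 without OHC replicate 4), with a log2 fold change of -2.71 without OHC replicate 6. Tuba1b, named after its values were seen, was the fourth (-0.78, SE 0.22, edgeR adjusted p = 0.0370) and passed in 5 of the 12 fits that left out a library, not without IHC replicate 1 or 4 or OHC replicate 1, 2, 3, 4 or 6 (adjusted p up to 0.087). Tubb2b, a beta-tubulin of migrating neurons, was higher in OHCs, at 27.3 to 87.1 against 18.1 to 29.2 CPM (1.30, SE 0.33, edgeR adjusted p = 0.0228), but not without OHC replicate 4 (0.073) or 5 (0.059). Both types thus held abundant tubulin transcripts while Tubb3 was near 0.

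Of 7 other intermediate filaments, 5 were tested and 1 was past the threshold. Vim, the vimentin of mesenchymal, glial and supporting cells, was higher in IHCs, at 54.0, 75.5 and 86.5 CPM against 6.04, 14.4 and 57.2 (log2 fold change -1.84, SE 0.45, edgeR adjusted p = 0.0185). It overlapped only through OHC replicate 3, without which the log2 fold change was -2.54. Vim moved in the same direction as Sox2, and in the opposite direction to the fitted changes of Fgfr3 and Hes5. Those 2 did not pass over the 12 libraries, Fgfr3 with IHC replicate 6 at the OHC level. Gfap, the filament of astrocytes, was at most 0.252 CPM and was not tested, nor was Des, the desmin of muscle. Des stood at 0.236, 0.702 and 38.1 CPM in the lowest, median and highest IHC pool and at most 0.133 CPM in any OHC pool, without overlap, and passed the threshold where no filter was applied.

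Of 11 microtubule regulators, 8 were tested and 1 passed. Stmn1, the broadly expressed stathmin, was higher in IHCs, at 24.4, 43.6 and 72.1 CPM against 8.28, 16.6 and 18, without overlap (-1.58, SE 0.36, edgeR adjusted p = 0.0119). Map2, a dendritic microtubule-associated protein, stood at 32.6 to 62.5 CPM in IHCs and 32.0 to 106 in OHCs and did not pass (0.59, SE 0.30). Mapt, the axonal protein tau, was at most 1.60 CPM and Stmn4 was at 0 counts in all 12 libraries.

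Most growth cone and adhesion genes did not pass the test. Of 16 tested, 1 was higher in IHCs and 2 in OHCs. Shtn1, the shootin that couples actin flow to adhesion in growth cones, had the largest difference towards IHCs among the companions, at 139, 295 and 395 CPM against 0.834, 11.1 and 29.4 (-4.41, SE 0.57, edgeR adjusted p = 6.91e-05). Cntn1, a contactin that binds axonal ligands, was higher in OHCs, at 3.54, 14.3 and 20.8 CPM against 0.131, 0.677 and 1.41 in IHCs (4.21, SE 0.82, edgeR adjusted p = 0.00311). Nrcam, an adhesion molecule named here after its values were seen, was also higher in OHCs (0.76, SE 0.18, edgeR adjusted p = 0.0164). Dpysl2 and Dpysl3, collapsin response mediators of growing axons, were among the most abundant companions. Dpysl2 stood at 532 to 1453 CPM in IHCs and 471 to 1023 in OHCs (-0.54, SE 0.24, edgeR adjusted p = 0.189), and Dpysl3 at 494 to 708 and 547 to 670 (-0.03, SE 0.17, edgeR adjusted p = 0.944).

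Pan-neuronal genes divided. Of 9 tested, 1 was higher in IHCs and 2 in OHCs. Snap25, a SNARE protein of vesicle release, stood at 117, 148 and 225 CPM in IHCs against 59.5, 70.2 and 91.4 in OHCs, without overlap (-1.17, SE 0.23, edgeR adjusted p = 0.00311). Syt1, the calcium sensor of neuronal synapses, was the reverse, at 97.7, 125 and 163 CPM in OHCs against 19.2, 61.8 and 75.8 in IHCs, also without overlap (1.18, SE 0.29, edgeR adjusted p = 0.0167). Elavl2, a neuronal RNA-binding protein, was higher in OHCs at 0.597 to 23.2 against 0.0306 to 0.916 CPM (4.88, SE 1.13, edgeR adjusted p = 0.0125). The log2 fold change of Elavl2 was 5.83 without IHC replicate 1 and 4.04 without OHC replicate 5, the pool that also held the highest Stmn2 and Slc17a7 counts. Elavl3 and Thy1, further neuronal labels, were at most 1.55 and 4.07 CPM and were not tested. Rbfox3, Syn1, Eno2, Nsg1 and Elavl4, by contrast, were counted in every pool and did not pass. Rbfox3 stood at 21.0 to 75.9 CPM in IHCs and 9.51 to 46.2 in OHCs, and Syn1 at 39.9 to 93.1 and 13.1 to 42.3. Eno2 stood at 4.38 to 18.3 CPM in IHCs and 10.7 to 26.5 in OHCs. Nsg1 held 2.27 to 13.0 and 4.84 to 12.5 CPM, and Elavl4 0.398 to 12.3 and 0.915 to 23.1. Uchl1, an abundant neuronal hydrolase, stood at 373 CPM in IHC replicate 1 and between 15.5 and 62.1 CPM in all other libraries.

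**Figure D4:**
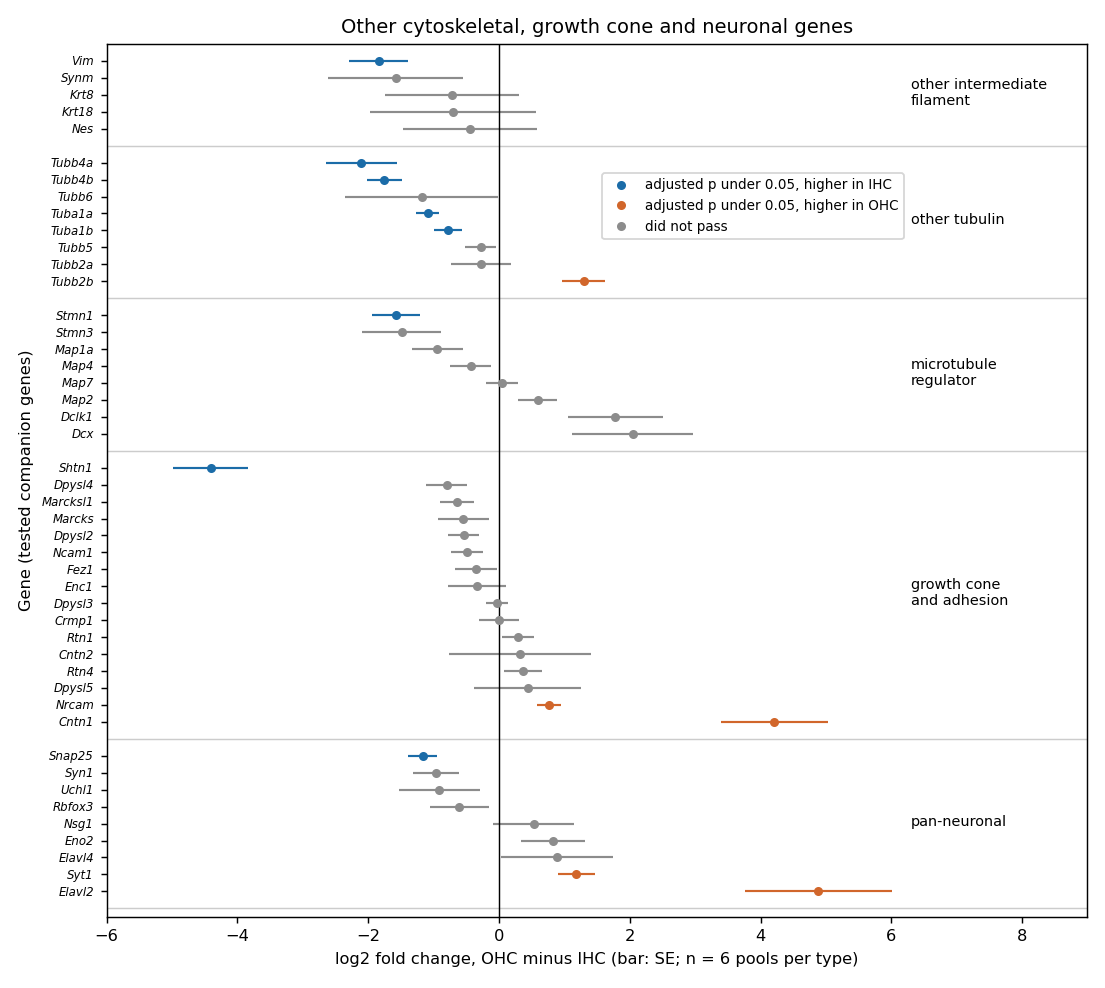
log2 fold change (OHC minus IHC, with SE; n = 6 pools per type) of the 46 tested companion genes by list, coloured by whether the adjusted p was under 0.05 and in which direction. Tubulins lie mostly left of 0 (higher in IHCs) with Tubb2b on the right, Shtn1 lies far left at -4.41, and Cntn1 and Elavl2 lie far right at 4.21 and 4.88.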

How the data were processed

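The authors trimmed the paired reads with Trimmomatic, aligned them with STAR to GRCm39 and counted them per gene with HTSeq in intersection-nonempty mode. The deposited values are raw counts, 1 file per library. The strand setting and tool versions are not given in the sources used here. Counts were tested as deposited, without the 5 summary lines. Gene names came from GENCODE vM39 (98.8% of IDs, 99.97% of counts).

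The genes and lists were chosen with earlier results of these data known. Genes passing filterByExpr (minimum count 10, minimum total 15) were fitted by edgeR 4.0.16 (TMM, glmQLFit, glmQLFTest, OHC against IHC) with Benjamini-Hochberg adjustment over all of them, in R 4.3.3. The fit was tested on simulated data. A planned glial marker is not reported here. Named companions were those past the threshold, at most 10 by size of change, and the 4 with the highest mean CPM. Companions beyond these were named outside this rule. Genes like Nefl were the 5 with the highest r. Alternatives were RLE scaling, DESeq2 1.42.0, no filter, at least 10 counts in every library, no ribosomal RNA genes, each library left out, and a replicate block; for correlations a pseudocount of 0.1. Libraries at 3 counts or fewer were taken as at the floor, and p-values measure the spread between pools.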

Additional observations from a re-analysis of the deposited data

Results flagged for a closer look

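In 48 groups of 6 pools looked at (the 10 members, the named companions and the Nefl to Nefm ratio in each cell type), 12 values stood apart from the other 5 by Dixon's 95% criterion. That criterion assumes normally distributed values, and several of these groups lie at a few counts. The 12 values are therefore listed as a description and set against no chance rate. Among the members, Map1b was at 1223 CPM in OHC replicate 2, with the other OHC pools between 756 and 926 CPM. Gap43 was at 0.890 CPM in IHC replicate 3 and at 2.28 CPM in OHC replicate 3, where the other pools of each type held at most 0.109 and 0.0937 CPM. Stmn2 was at 0.704 CPM in IHC replicate 5, and Prph at 0.0504 CPM, from 2 counts, in IHC replicate 4, the other IHC pools having none. The ratio of Nefl to Nefm counts was 1.17 in OHC replicate 5 and at most 0.514 in the other OHC pools.

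Among the companions, OHC replicate 5 also stood apart for Elavl2 (23.2 CPM, others at most 8.26), Tubb4b (263 CPM, others at most 157) and Dpysl2 (1023 CPM, others at most 627). Elavl2 was at 0.916 CPM in IHC replicate 1, from 14 counts. Tubb4a was at 19.2 CPM in OHC replicate 6, and Vim at 57.2 CPM in OHC replicate 3.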

How the results depend on the processing

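The numbers of genes higher in IHCs and in OHCs were 506 and 324. DESeq2 gave 1321 and 1566, and no filter on low counts gave 893 and 918; the cause was not tested. Leaving out each library in turn gave 369 to 551 and 225 to 402. Members past the threshold numbered 2 to 4 over all settings: Nefl and Nefm always, Basp1 in part, Nefh only by DESeq2, higher in OHCs. Companions numbered 10 to 16. The mean ratio of Nefl to Nefm per length fell from 1.06 to 0.594 in IHCs and from 0.973 to 0.547 in OHCs when the canonical transcripts set the lengths, an alternative chosen after seeing the data, since Nefm alone then becomes much shorter. Exonic bases shared with no other gene gave 1.28 and 1.18. The sign of the near-zero log2 fold change of Map1b turned without IHC replicate 1 (0.047, over a range of -0.126 to 0.047) or OHC replicate 5 (0.029), and that of Dpysl3 without IHC replicate 2 (0.0097, over a range of -0.099 to 0.0097). No pair with Nefl passed with a pseudocount of 0.1 or RLE scaling (0 of 18), and with 4 libraries left none could, the smallest possible p being 0.042.

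Replicate numbers are shared between the cell types, but same-numbered pools did not deviate together (correlations of deviations between -0.031 and 0.018, and 1 of 12 libraries closest to its own number). With the replicate block 512 genes were higher in IHCs and 391 in OHCs, 2 members passed, without Basp1, and 11 companions passed, without Tuba1b and Tubb2b. The limits are depth and annotation. Prph, Tubb3, Gap43, Stmn2 and Nefh rest on few counts, as does Basp1 in OHCs. Opposite-strand overlaps touch Nefl, Nefm, Nefh and Ina and, over fewer exonic bases, Map1b and Basp1.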
